A study of Mus musculus with 2 samples.

Results

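Integrins and cadherins are the membrane receptors that hold cells to the matrix and to each other, and their genes were followed here in the lungs of mouse embryos at E13.5. A gene was included when its platform symbol was Itga or Itgb followed by a number or by v, e, l, m, x, d or 2b, or Cdh followed by a number, apart from Cdh1 and Cdh5. This gave 47 of 19938 genes, 26 integrins and 21 cadherins. The groups were embryos labelled as Etv4;5 knockout and embryos labelled as wild type. Etv4 and Etv5 encode ETS-family regulators of the distal lung epithelium, and how complete their loss was is not known here. Equal amounts of RNA from 3 samples were pooled in each group and each pool was hybridised to 1 array, so there were no replicates and every difference below compares 2 pools. One label shortens the knockout to CKO where others write knockout or DKO. Neither a Cre line, the deleted exons nor the strain was given in the sources used here.

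An integrin is a dimer of an α and a β chain that binds matrix proteins such as laminin, collagen and fibronectin outside the cell and, through talin and kindlin, the actin skeleton inside. The α chain largely sets which ligand is bound, and Itgb1 encodes the β chain that most α chains pair with. Classical cadherins bind cadherins of the neighbouring cell and are tied to actin by catenins. In the branching lung, epithelial tips grow on a laminin-rich basement membrane into a mesenchyme rich in fibronectin and tenascin, and loss of the laminin receptor chain encoded by Itga3 is known to disturb airway branching in mice.

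The deposited values were read as log2 values. Their medians were 7.58 in the knockout pool and 7.60 in the wild type pool. Etv4 was at 6.96 in the knockout pool and 7.59 in the wild type pool, a difference of -0.63 at a level that did not count as measured. Etv5 was at 11.28 in the knockout pool and 11.51 in the wild type pool, a difference of -0.23. The position of the probes relative to the deleted exons is unknown, so this is no full check of the labels. The pools also differed in sex makeup: Xist was at 5.74 in the knockout pool and 12.34 in the wild type pool. None of the 47 integrin and cadherin genes lies on the X or Y chromosome. Lung identity was readable in both pools, with Nkx2-1, a transcription factor of lung epithelium, at 10.70 in the knockout pool and 10.58 in the wild type pool. Probe sets differ in how brightly they report a transcript, so values are compared between the pools and never between genes.

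The integrin and cadherin genes had nearly the same values in both pools, as did most genes of the array. A gene was counted as measured when its mean over both arrays reached 7.59, the mean of the array medians, which 17 integrins and 8 cadherins did. Of these 25 genes, 0 were higher in the knockout pool by 1.2-fold or more (log2 0.26) and 0 were lower by as much. Across all 10926 measured genes the shares were 1.22% higher and 1.43% lower, so a count of 0 among 25 genes is near the background and is no result about these families. The measured integrins ranged from -0.24 to 0.14 with a median of -0.0044, the measured cadherins from -0.16 to 0.18 with a median of -0.02, and the median of all measured genes was 0. Taken without sign, the median difference was 0.06 for the measured integrins, 0.03 for the measured cadherins and 0.03 for all measured genes. The families were thus no closer to equal than other genes. By sign alone, 6 integrins were higher, 9 lower and 2 equal in the knockout pool, and 1 cadherin was higher, 5 lower and 2 equal. Among all measured genes 25.1% were higher, 47.2% lower and 27.7% exactly equal on both arrays. These tallies follow the scaling: with the arrays set to equal medians 9 integrins were higher and 8 lower, 4 cadherins were higher and 4 lower, and 60.6% of all measured genes were higher and 39.4% lower. With loess scaling 7 integrins were higher and 10 lower, so no direction is read from either family.

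**Figure D1:**
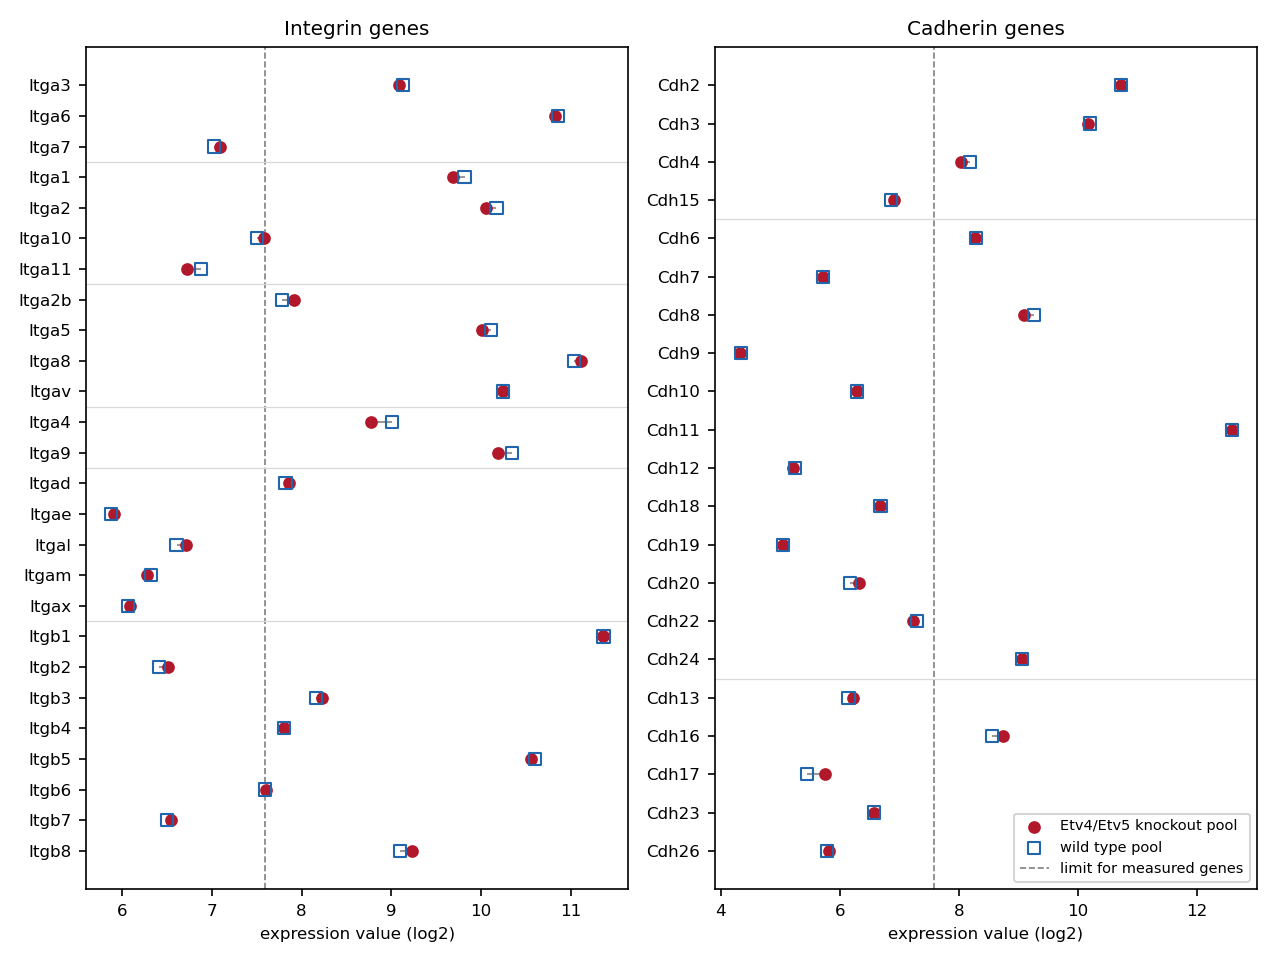
Expression value (log2) of each integrin gene (left) and cadherin gene (right) in the knockout pool (filled circles) and the wild type pool (open squares), 1 array each, with genes in functional groups split by thin lines and a dashed line at the limit of 7.59 for measured genes. The symbols nearly coincide for most genes, and the widest gaps are those of Cdh17, which lies below the limit, and Itga4.

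A finer threshold of 1.1-fold (log2 0.14) separated a few genes. Lower by at least 1.1-fold in the knockout pool were Itga4, Itga9, Cdh8 and Cdh4, where 7.31% of all measured genes were. Higher by at least 1.1-fold were Itgb8, Itga2b and Cdh16, where 4.61% of all measured genes were. Per family this makes 2 of 17 integrins lower and 2 higher (11.8% each), and 2 of 8 cadherins lower and 1 higher. These shares lie above the background but rest on 1 or 2 genes each, so nothing particular to the families is read from them. Under 3 other scalings, the mean over probe sets and a floor, 4 of these 7 genes always stayed past 1.1-fold: Itga4, Itga9, Itgb8 and Cdh16. Without replicates, the yardstick was how closely probe sets of a gene agree. In 613 measured genes with 2 probe sets, the differences of both lay a median of 0.04 apart, and 0.18 at the 90th percentile. Both probe sets read the same pools on the same arrays, so this gap holds no spread between embryos, pools or hybridisations. Of the 25 measured genes, 12 differed by no more than that median gap, and 2 (Itga4 and Cdh16) by more than the 90th percentile gap.

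**Figure D2:**
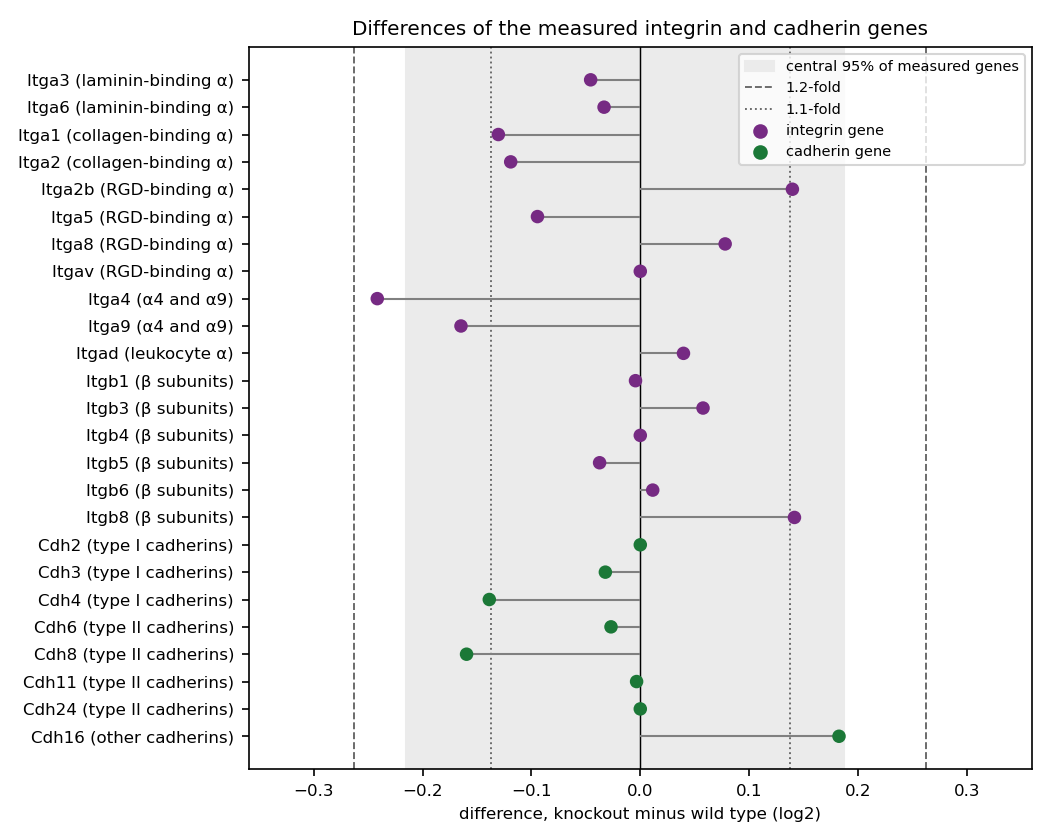
Difference, knockout minus wild type (log2), of the 25 measured integrin (purple) and cadherin (green) genes, with the group of each in brackets. Dotted lines mark 1.1-fold and dashed lines 1.2-fold. The grey band is the central 95% of all measured genes, from -0.22 to 0.19, and only Itga4 at -0.24 lies outside it.

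**Figure D3:**
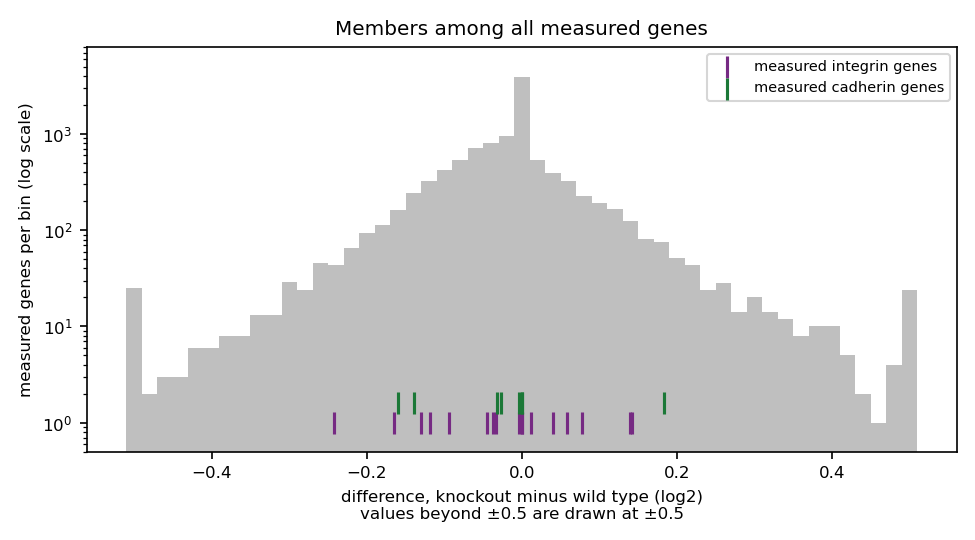
Number of measured genes (log scale) by difference, knockout minus wild type (log2), with values beyond ±0.5 drawn at ±0.5. Ticks near the base mark the measured integrin genes (purple) and cadherin genes (green), which lie between -0.24 and 0.18, within the bulk of the distribution.

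The promoters of 4 integrin genes are shown because they span the outcomes: Itga4 and Itga9 were lower, Itga2b was higher and Itgav was equal in both pools, in a study of factors that bind DNA at ETS sites. Each is 300 bases from RefSeq, build GRCm38.p6, from 250 before to 50 after the start site, read 5′ to 3′ on the gene's strand. Capitals mark the letters CGGAAG or AGGAAG on either strand, which both contain the ETS core GGAA. The motifs were chosen after the values were seen.
Itga4, chr2:79255176-79255475, plus strand: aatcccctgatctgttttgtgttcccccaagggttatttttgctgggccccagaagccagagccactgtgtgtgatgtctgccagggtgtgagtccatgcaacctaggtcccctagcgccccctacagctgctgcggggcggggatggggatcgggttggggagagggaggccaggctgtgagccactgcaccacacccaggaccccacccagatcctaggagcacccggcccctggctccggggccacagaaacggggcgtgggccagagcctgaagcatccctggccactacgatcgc
Itga9, chr9:118711442-118711741, plus strand: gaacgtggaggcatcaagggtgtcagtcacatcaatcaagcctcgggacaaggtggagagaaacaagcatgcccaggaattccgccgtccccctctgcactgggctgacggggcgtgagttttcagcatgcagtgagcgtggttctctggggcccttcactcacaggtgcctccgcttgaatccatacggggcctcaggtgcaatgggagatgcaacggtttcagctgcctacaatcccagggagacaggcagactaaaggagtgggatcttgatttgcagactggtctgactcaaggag
Itga2b, chr11:102469834-102470133, minus strand: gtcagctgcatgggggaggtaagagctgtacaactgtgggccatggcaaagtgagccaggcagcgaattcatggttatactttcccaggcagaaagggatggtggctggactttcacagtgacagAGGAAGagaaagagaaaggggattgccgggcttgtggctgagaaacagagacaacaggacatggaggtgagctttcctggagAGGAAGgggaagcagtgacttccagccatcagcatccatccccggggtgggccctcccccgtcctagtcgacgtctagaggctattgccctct
Itgav, chr2:83724147-83724446, plus strand: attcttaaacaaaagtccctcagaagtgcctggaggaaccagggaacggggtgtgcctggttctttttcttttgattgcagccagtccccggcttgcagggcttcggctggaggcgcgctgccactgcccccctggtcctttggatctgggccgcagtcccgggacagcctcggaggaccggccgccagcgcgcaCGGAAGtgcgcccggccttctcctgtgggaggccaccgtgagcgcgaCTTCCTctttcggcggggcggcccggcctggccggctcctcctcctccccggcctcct

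The Itga2b window holds AGGAAG in 2 places, starting at -125 and -43 from the start site, and the Itgav window holds CGGAAG once and AGGAAG once, with AGGAAG on the minus strand. The windows of Itga4 and Itga9 hold neither, which says only that these letters are absent from these 300 bases. Both windows still contain the shorter core GGAA when either strand is read. Any member window on chromosome 18, where Cdh2 lies, was left out, while the set of all promoters kept that chromosome. RefSeq windows were used for 31 of the 47 genes, 35 windows in all. Of these windows 48.6% held either motif, against 46.5% of 32851 promoters of the same length. CGGAAG stood in 5.71% of them, against 16.9% of all promoters, and AGGAAG in 48.6%, against 35.4%. The 7 measured genes with either motif in a window had a median difference of -0.0044 (from -0.13 to 0.14). The 9 measured genes with neither had a median of -0.09 (from -0.24 to 0.14). The genes with neither motif passed the range of those with a motif at both ends. Itga4, Itga9 and Cdh8 lay below it, and Itgb8 at 0.142 lay just above its upper end, Itga2b at 0.140. A link between these motifs and the differences was not tested.

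The α4 and α9 chains are close relatives that both bind Vcam1 and forms of fibronectin, and both genes were lower in the knockout pool. Itga4, which marks many mesenchymal and blood cells, was at 8.77 in the knockout pool and 9.01 in the wild type pool, a difference of -0.24 (1.18-fold). Itga9, a receptor chain for tenascin-C, was at 10.19 in the knockout pool and 10.35 in the wild type pool, a difference of -0.16. These are the most negative differences of any measured integrin gene. Of their ligands, Tnc, which encodes tenascin-C, was at 9.35 in the knockout pool and 9.88 in the wild type pool, a difference of -0.53. Vcam1 differed by -0.07 and Fn1, fibronectin, by -0.06, while Thbs1 was equal in both pools, as was Madcam1 under the limit. The ligands of each receptor in this and the next paragraphs were picked for their known binding after their values were seen.

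Both measured collagen receptor chains were slightly lower. Itga1 was at 9.69 in the knockout pool and 9.82 in the wild type pool (difference -0.13), and Itga2 was at 10.05 in the knockout pool and 10.17 in the wild type pool (difference -0.12). The genes lie next to each other on chromosome 13, with 0 other genes of the array between them. Itga11, a collagen receptor chain of fibroblasts, differed by -0.16 and Itga10, of cartilage, by 0.09, but neither counted as measured. The collagen genes Col1a1 and Col1a2 differed by -0.07 and -0.09.

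Laminin receptor chains were close to equal. Itga3 was at 9.08 in the knockout pool and 9.13 in the wild type pool (difference -0.05). Itga6, whose product pairs with the chains of Itgb1 or Itgb4, was at 10.83 in the knockout pool and 10.86 in the wild type pool (difference -0.03). Itgb4, the hemidesmosome chain, was at 7.80 in both pools. Itga7, mainly a muscle receptor chain, differed by 0.07 below the limit. Among the listed laminin chains themselves the largest differences were those of Lamb3 (0.17), Lamb1 (-0.15) and Lama2 (-0.26). The others were closer to equal: Lama1 at -0.06, Lama3 at -0.03, Lama4 at -0.07, Lama5 at -0.05, Lamb2 at 0.06 and Lamc1 at -0.0067.

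The receptors that read the RGD sequence of matrix proteins differed by small amounts in both directions. Itgav, the shared α chain of several of them, was at 10.25 in both pools. Itga5, whose product is the main fibronectin receptor chain, was at 10.01 in the knockout pool and 10.11 in the wild type pool (difference -0.09). Itga8, whose product binds nephronectin with the Itgb1 chain, was at 11.12 in the knockout pool and 11.04 in the wild type pool (difference 0.08), and the nephronectin gene Npnt differed by 0.03. Itga2b, the platelet chain, was at 7.92 in the knockout pool and 7.78 in the wild type pool (difference 0.14), just above the limit. It lies on chromosome 11 with 25 genes of the array between it and the targeted gene Etv4. Whether that position has a part in its value was not tested.

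Of the β chains Itgb8 had the largest difference. It was at 9.23 in the knockout pool and 9.09 in the wild type pool, a difference of 0.14. Its product pairs with the Itgav chain and releases active TGF-β from its latent form, as does that of Itgb6, which differed by 0.01 at the limit (7.60 in the knockout pool and 7.59 in the wild type pool). The TGF-β gene Tgfb1 differed by -0.12 and Ltbp1, which anchors latent TGF-β in matrix, by -0.11. Itgb1 was at 11.36 in the knockout pool and 11.37 in the wild type pool, a difference of -0.0044 whose sign turned under other scalings (up to 0.02). Itgb5 differed by -0.04 and Itgb3, the β chain of platelets and of vitronectin receptors, by 0.06. Edil3, an RGD protein bound by αv receptors, was at 9.38 in the knockout pool and 8.17 in the wild type pool, a difference of 1.21, while Itgav, Itgb3 and Itgb5 stayed within 0.06.

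Leukocyte integrins were mostly under the limit. Itgad was the measured member, at 7.86 in the knockout pool and 7.82 in the wild type pool (difference 0.04). Its second probe set gave 0.13 but lay far under the limit, at 5.90 in the knockout pool and 5.77 in the wild type pool. Itgad thus counted as measured only by its brighter probe set. Itgal, Itgam, Itgax, Itgae, Itgb2 and Itgb7 lay under the limit, with differences from -0.04 for Itgam to 0.11 for Itgb2. Another 3 probe sets named for both Itgam and Rpl35, and 3 that name Cdh11 among other genes, were left out because they carry more than 1 symbol.

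Among classical type I cadherins, Cdh2 (N-cadherin, of mesenchyme and heart) was at 10.72 in both pools. Cdh3 (P-cadherin, of epithelia) was at 10.18 in the knockout pool and 10.21 in the wild type pool (difference -0.03), although its neighbour on chromosome 8, Cdh1 (E-cadherin), was at 10.57 in the knockout pool and 10.38 in the wild type pool (difference 0.19). Cdh4 (R-cadherin) was at 8.04 in the knockout pool and 8.18 in the wild type pool (difference -0.14). It no longer passed 1.1-fold when the arrays were scaled to equal medians or by quantiles. Cdh15 (M-cadherin, of muscle precursors) differed by 0.04 below the limit.

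Of 12 type II cadherins, 4 were measured. Cdh11 (of mesenchyme and bone) was at 12.60 in both pools, differing by -0.0034, and its sign turned under other scalings (up to 0.01). Cdh8, best known from neurons, was at 9.10 in the knockout pool and 9.26 in the wild type pool (difference -0.16), although only 1 gene of the array lies between Cdh8 and Cdh11 on chromosome 8. It fell short of 1.1-fold under quantile scaling. Cdh6 differed by -0.03, and Cdh24 was at 9.06 in both pools, while its second probe set gave 0.06. Cdh16 (kidney-specific cadherin, also found in other epithelia) had the most positive difference of all 25 measured genes. It was at 8.74 in the knockout pool and 8.56 in the wild type pool, a difference of 0.18.

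The 22 members under the limit ranged from 4.32 to 7.59 in the knockout pool and from 4.35 to 7.50 in the wild type pool. Of these, 12 were higher, 5 lower and 5 equal in the knockout pool. All 9012 genes under the limit had a like tilt, with 43.3% higher, 16.2% lower and 40.5% equal. Cdh17, known as the liver-intestine cadherin, was the only such member past 1.2-fold, at 5.75 in the knockout pool and 5.45 in the wild type pool (difference 0.30). At this threshold 3.41% of the genes under the limit were higher. With values floored at the 25th percentile of each array its difference was 0.02. The member nearest the limit from above was Itgb6 (mean 7.60) and from below Itga10 (mean 7.54).

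Most genes whose products integrins and cadherins work with also stayed within 1.2-fold. Of 26 measured integrin ligands, 18 were lower and 6 higher (median -0.06), and 17 were lower and 9 higher with equal medians. Past 1.2-fold were 1 higher gene (Edil3) and 2 lower genes (Tnc and Lama2), where 1.22% and 1.43% of all measured genes were. Lama2, at -0.26, lay at the threshold and no longer passed it under any of the 3 other scalings (-0.25 with equal medians). Of 17 measured genes of the adhesion complex, 3 were higher and 9 lower as deposited, and 12 higher and 5 lower with equal medians. In this list 0 genes passed 1.2-fold, with a median of -0.0007 (0.02 with equal medians). The largest were Lims1 and Fermt2, which encode the adaptors PINCH1 and kindlin-2, at -0.11 each. Of 10 measured catenins and partners 6 were higher, 1 lower and 3 equal (median 0.02). With equal medians 9 were higher and 1 lower, where 60.6% of all measured genes were higher and 39.4% lower. Ctnna2, the neural α-catenin, passed 1.2-fold at 0.28 (8.23 in the knockout pool and 7.95 in the wild type pool). Jup, plakoglobin, differed by 0.16, and Ctnnb1, β-catenin, was equal at 12.71. Of 16 other measured members of the cadherin superfamily, protocadherins included, 6 were higher and 7 lower (median 0), and 11 were higher and 5 lower with equal medians, led by Clstn2 at 0.23 and Cdh1 at 0.19.

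Markers of several cell types differed between the pools, and in bulk RNA fewer cells of a type and less RNA per cell cannot be told apart. As deposited, 25.1% of all measured genes were higher and 47.2% lower. Lung epithelium markers were higher in 11 of 14 (median 0.11, mean level 10.03 in the knockout pool and 9.87 in the wild type pool), with Krt18 at 0.47 and Krt19 at 0.45. Smooth muscle markers were lower in 8 of 8 measured (median -0.24, mean level 10.24 in the knockout pool and 10.51 in the wild type pool), with Synpo2 at -0.49 and Myocd at -0.39. Mesenchyme markers were lower in 7 of 9 (median -0.07, mean level 11.02 in the knockout pool and 11.10 in the wild type pool), with Foxf1 at -0.40 and Tcf21 at -0.14. With equal medians 12 of 14 epithelium markers were higher, and 8 of 8 smooth muscle and 7 of 9 mesenchyme markers lower. Of all measured genes 60.6% were then higher and 39.4% lower. The epithelium and mesenchyme markers did not all share a direction, with Foxa1 at -0.04 and Lum at 0.10. Nor did the integrin and cadherin genes known from these tissues. Those named next are examples, not a full list, and no rule set beforehand chose them. Of those known from mesenchyme or muscle, Itga1, Itga4 and Itga9 were lower, Cdh2 and Cdh11 were within 0.01 of equal and Itga8 was higher by 0.08. Of those known from epithelia, Cdh16 was higher, Itgb4 was equal, and Cdh3, Itga3 and Itga6 differed by -0.03, -0.05 and -0.03. With quantile scaling Cdh3, Itga3 and Itga6 were at -0.0044, -0.02 and -0.02, too small to carry a direction. The part of the marker differences in these values was not tested.

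Endothelial markers were lower in 8 of 10 (median -0.02, mean level 10.65 in the knockout pool and 10.68 in the wild type pool), with Pecam1 and Tek at -0.08 each. With equal medians 5 were lower and 5 higher, so these carry no direction. Leukocyte markers were lower in 6 of 7 (median -0.10, mean level 8.51 in the knockout pool and 8.60 in the wild type pool), with Mrc1 at -0.17 and Csf1r at -0.15. With equal medians 6 of these leukocyte markers were lower and 1 higher. The share of all measured genes that were lower was 47.2% as deposited and 39.4% with equal medians. Beside them the measured leukocyte integrin Itgad differed by 0.04, and those under the limit differed in both directions as given above. Of 5 measured megakaryocyte and erythroid markers 4 were lower (median -0.05, mean level 9.04 in the knockout pool and 9.14 in the wild type pool), and the erythroid genes Slc4a1 (-0.26) and Hba-x (-0.25) differed most. With equal medians 4 were again lower and 1 higher, a list too small to read a direction from. The platelet genes Gp9 and Pf4 differed by 0.05 and -0.05. The platelet chain Itga2b differed by 0.14, and by 0.13, short of 1.1-fold, with loess scaling. Mesothelium markers had a median of 0.03 over 4 measured genes, with Bnc1 at 0.20 and Upk3b at -0.09. Neurons and Schwann cell precursors had 2 measured markers, Stmn2 at -0.20 and Erbb3 equal, and cardiac and skeletal muscle had 1, Tnnt2 at -0.05. The lowest value of any probe set was 2.69 in the knockout pool and 2.72 in the wild type pool. That no marker was at 0 thus says nothing on whether a cell type was present.

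**Figure D4:**
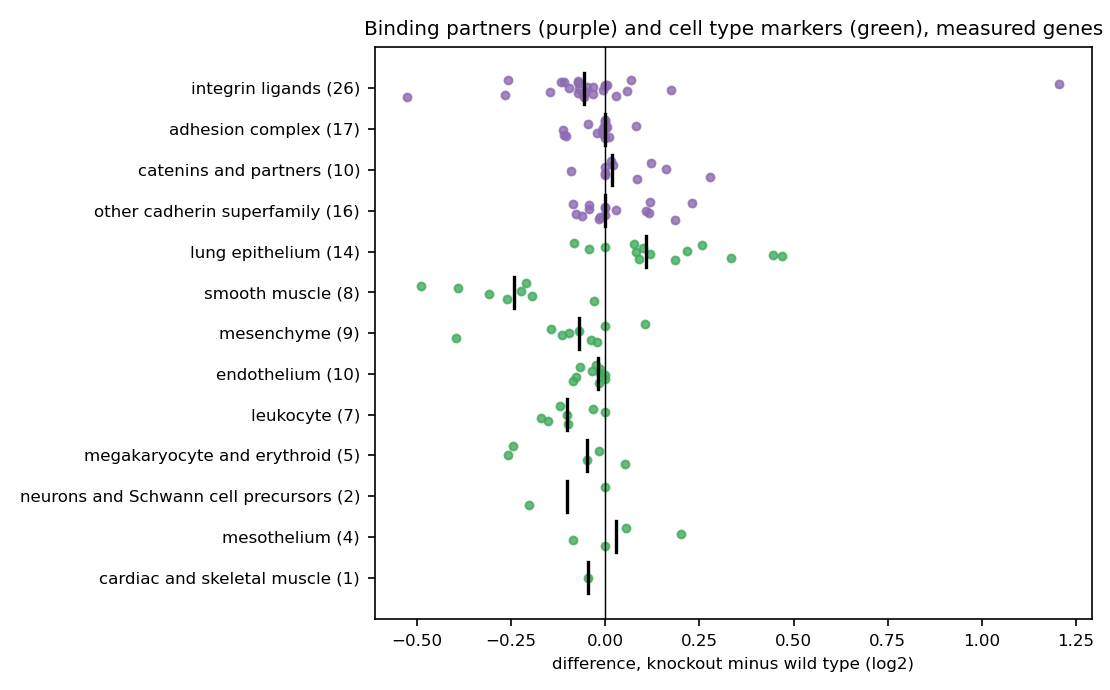
Difference, knockout minus wild type (log2), of each measured gene in 4 lists of integrin and cadherin partners (purple) and 9 lists of cell type markers (green). Black bars are list medians and the number of measured genes is in brackets. Smooth muscle markers lie left of 0 (median -0.24), most lung epithelium markers right of it (median 0.11), and Edil3 at 1.21 is the far point among the ligands.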

How the data were processed

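Per the series' design text and the labels' protocols, RNA of 3 samples per group was pooled in equal amounts, labelled with biotin and read on 1 Affymetrix array per pool. The authors deposited 1 value per probe set and array, read here as log2 expression from its range, and their summary method, normalization and log base are not given in the sources used here. Of 35557 probe sets, 21789 had 1 gene symbol in the platform annotation, 1621 several and 12147 none. Each gene was read by the probe set with 1 symbol and the highest mean of both arrays, for 19938 genes in all. Those whose mean reached 7.59, the mean of both array medians, are called measured (10926 genes).

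Differences are knockout minus wild type. With 1 array per group no test was run. Genes were counted at 1.2-fold and set beside the share of all measured genes counted the same way. Named were all measured members, other members past 1.2-fold, Etv4, Etv5, Xist and the 2 measured genes with the largest difference of each partner or marker list. Other genes, such as ligands, partners and members under the limit, were named after their values were seen. The members and lists were chosen with earlier results of these data known. The counting steps were tested on simulated data. Promoters and chromosomes came from RefSeq tables of GRCm38.p6. Alternatives were 3 scalings, the mean over probe sets, 3 filters, a floor and 3 thresholds. Python 3.11.15, numpy 2.4.6, pandas 2.3.3, statsmodels 0.14.6 and matplotlib 3.10.9 were used.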

Additional observations from a re-analysis of the deposited data

How the results depend on the processing

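Since each group had a single array, none was left out and no test was run. No paired analysis was possible because each group has 1 pool. Of the counts and medians of the families, 5 moved: at 1.1-fold the counts were 2 higher and 2 lower integrins, and 1 higher and 2 lower cadherins, each 0 at 1.2-fold, and with no filter 1 cadherin (Cdh17) was higher. Both causes lie in the settings themselves, a lower threshold and more genes. Counts of 0 at 1.2-fold could not change at 1.5-fold or 2-fold. A median counted as moved only past a shift of 0.04, which is larger than the family medians themselves. With equal medians both medians changed sign, to 0.01 for the integrins and 0.002 for the cadherins. Leaving out X and Y genes was chosen after the data were seen. It could not change these counts or medians, because no member lies on X or Y. It is thus no check of the sex difference between the pools. The 92 single genes run under the scalings, the probe set mean and the floor moved by no more than 0.04 except Cdh17 and Cdhr2 (0.02 each with the floor), Itgad (0.09 as the mean of both probe sets), and Xist at -6.19 under that floor. Scalings shifted the median of measured genes by up to 0.02, so differences this small carry no direction. Dim signal limits the 22 members under the limit.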

Other observations

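Other adhesion genes, in lists chosen after the values were seen, differed by similar amounts. Tetraspanins, membrane proteins that assemble with integrins, were lower in 11 of 16 measured genes and higher in 2 (median -0.02), and 8 were lower and 8 higher with equal medians, so no direction is read from the list. Of the tetraspanins 0 passed 1.2-fold. Tspan13 was at 10.53 in the knockout pool and 10.74 in the wild type pool (difference -0.21), and Cd9 at 8.88 in the knockout pool and 8.70 in the wild type pool (difference 0.18). Cd151, the known partner of laminin-binding integrins, differed by 0.04. Among 18 measured adhesion genes of the immunoglobulin family 8 were higher and 7 lower (median 0), and 0 passed 1.2-fold. Jam2, a junction protein of endothelium, came nearest at -0.26, and its relative Jam3 differed by -0.16, while F11r, the epithelial relative, differed by 0.0078. Ncam1 and Cadm1 differed by -0.15 each and Alcam by 0.14. Of 10 genes with related symbols (Itgbl1, Itgb2l, Itgb1bp1, Itgb1bp2, Itgb3bp and Cdhr1 to Cdhr5), 3 were measured: Itgb1bp1 and Itgb1bp2 were equal in both pools and Cdhr4 differed by -0.07. Under the limit the differences reached 0.11 for Itgb2l and 0.10 for Cdhr2.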
